A study of Mus musculus with 4 samples.

Results

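The genes encoding the proteins of the cytosolic and the mitochondrial ribosome were examined in the whole urogenital sinus (UGS) of male mouse embryos. Members were the rows of the deposited expression table whose symbols follow the naming of ribosomal proteins, *Rpl*, *Rps*, *Rplp* and *Rpsa* for the cytosolic ribosome and *Mrpl* and *Mrps* for the mitochondrial one, leaving out the *Rps6k* kinases. They were 153 of 25819 rows. Of these, 81 were cytosolic, with 49 named for the large and 32 for the small subunit. The other 72 were mitochondrial, with 46 named for the large and 26 for the small subunit. The subunit was read from the symbol alone, which need not give the true place of a protein. All 72 mitochondrial and 78 cytosolic members reached 1 FPKM in at least 1 library, FPKM being read numbers scaled to transcript length and sequencing depth.

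The study asked how the loss of *Tbx18*, a T-box transcription factor gene active in the mesenchyme of the UGS, alters expression in the UGS ahead of the prostate defects of the mutant. Timed matings of heterozygous *Tbx18Gfp/+* mice gave null *Tbx18Gfp/Gfp* embryos, in which GFP is knocked into the *Tbx18* locus, and wild type littermates. The 4 libraries were wild type and *Tbx18Gfp/Gfp* at E16.5 and wild type and *Tbx18Gfp/Gfp* at E18.5, each 1 pool of RNA from 3 male embryos, with no further treatment. With 1 library per genotype and stage no comparison here has a replicate error or a test, and the E18.5 and the stage comparisons share libraries. The allele is null in every cell, and the whole UGS mixes epithelium, mesenchyme, muscle and blood, so fewer cells of a type and less RNA per cell cannot be told apart.

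Ribosomal proteins assemble with ribosomal RNA into a small subunit, which reads the mRNA, and a large subunit, which forms the peptide bonds. Cytosolic ribosomal proteins are made in near equal numbers and their mRNAs are among the most abundant of any cell. Many of these mRNAs begin with a C followed by a run of pyrimidines, the terminal oligopyrimidine or TOP tract, through which mTORC1 signalling controls their translation. Mitochondrial ribosomes translate the few proteins encoded by mitochondrial DNA, and all of their own proteins are encoded in the nucleus.

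*Tbx18* itself was listed at 3.47 FPKM in E16.5 wild type, 2.50 in E16.5 mutant, 3.16 in E18.5 wild type and 2.93 in E18.5 mutant UGS. FPKM of the whole locus cannot tell RNA of the knock-in allele from that of the intact gene. Of 19 genes of a list of UGS markers, 18 had at least 1 FPKM in every library, and *Foxa2* had 0.989, 1.04, 1.22 and 0.688 FPKM. Depth was not given and was estimated from genes with a single read at 64000000, 55700000, 29000000 and 52400000 mapped reads in the order above, so the E18.5 wild type library was the shallowest. That library stood apart from the other libraries in the values of most members, and the results that rest on it are followed by values without it, from E18.5 mutant over E16.5 wild type UGS. Erythroid genes, 8 of 9 listed, summed to 17930, 28870, 5860 and 28490 FPKM, which was lowest in the same library, where *Hbb-bh1* was listed at 0. Smooth muscle genes summed to 1237, 670.1, 1485 and 3824 FPKM, skeletal muscle genes to 933, 392, 487 and 848 FPKM, and leukocyte genes to 70.1, 138, 64.4 and 79.7 FPKM. Neuron and glia genes summed to 447, 359.5, 281 and 367.5 FPKM. The part of these differences in the results below was not tested.

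Cytosolic ribosomal protein genes were among the most highly expressed rows of the table. Their median was 775 FPKM in E16.5 wild type, 790.2 in E16.5 mutant, 479 in E18.5 wild type and 799 in E18.5 mutant UGS. The median member ranked between percentile 99.64 and 99.75 of all rows in every library. Together the 78 members made up 13.16%, 12.48%, 12.67% and 12.64% of the summed FPKM of the libraries. The E18.5 wild type library thus had the lowest median of the 4 but not the lowest share. In the same order, FPKM summed to 60580, 61840, 47620 and 63750 over the members. Over all rows it summed to 460400, 495400, 375800 and 504100.

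The mitochondrial members were far lower in level. Their median was 20.6 FPKM in E16.5 wild type, 21.6 in E16.5 mutant, 13.7 in E18.5 wild type and 20.4 in E18.5 mutant UGS, and they made up 0.382%, 0.368%, 0.351% and 0.359% of the summed FPKM. The spread of log2 levels from gene to gene was 0.97, 0.97, 1.29 and 0.99 (SD over 72 genes), and that of the cytosolic members was 0.94, 1.00, 1.23 and 0.97 (SD over 78 genes). In both classes the members were least even in E18.5 wild type UGS.

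The 3 highest cytosolic members by mean level were *Rps27*, *Rpl41* and *Rps26*. *Rps27*, a zinc finger protein of the small subunit, had 2091, 1989, 1097 and 2157 FPKM in E16.5 wild type, E16.5 mutant, E18.5 wild type and E18.5 mutant UGS, the order used for every set of 4 values below. *Rpl41*, which encodes the smallest protein of the large subunit, had 1924, 2072, 1645 and 2051 FPKM. *Rps26*, at the mRNA exit channel of the small subunit, had 1582, 1519, 3672 and 1666 FPKM and was the highest of all members in E18.5 wild type UGS only. The lowest were *Rps15a* at 64.2, 62.4, 35.9 and 69.4 FPKM, *Rpl29* at 144, 58.8, 22.0 and 106 FPKM, and *Rpl22* at 124, 123.5, 104 and 127 FPKM. *Mrpl52* was the highest mitochondrial member, at 95.5, 100.1, 97.1 and 101 FPKM, followed by *Mrps21* at 83.0, 84.3, 78.7 and 95.4 FPKM and *Mrpl33* at 62.1, 69.4, 40.5 and 77.0 FPKM. The lowest mitochondrial members were *Mrpl36*, *Mrpl35* and *Mrpl17*, all under 5 FPKM in every library.

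Paralogs with tissue-restricted expression were at or near 0. *Rpl10l*, a retrogene copy of *Rpl10* used in male germ cells, was listed at 0 in all libraries. *Rpl39l* was listed at 0 in both wild type libraries and at 0.152 and 0.194 FPKM in E16.5 and E18.5 mutant UGS, which correspond to about 5 and 6 reads. *Rpl3l*, the striated muscle form of *Rpl3*, had 0.0189 to 0.0462 FPKM, or 1 to 3 reads. Their parents were abundant, with 698 to 936 FPKM for *Rpl10*, 806 to 1044 for *Rpl39* and 302 to 627 for *Rpl3*. *Rps27l*, a p53 target and the close relative of *Rps27*, was the exception, with 130, 138, 95.7 and 162 FPKM.

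At E16.5 the ribosomal protein genes had almost the same levels in mutant and wild type UGS. Ratios were taken as log2 of mutant over wild type after adding 0.1 FPKM, for rows that reached 1 FPKM in 1 or both of the libraries compared. The median over 78 cytosolic members was 0.03 and that over 72 mitochondrial members was 0.05, beside 0.01 over all 14761 rows tested. No member was at least 1.5-fold higher in the mutant, beside 1.23% of all rows, and 1 cytosolic and no mitochondrial member was at least 1.5-fold lower, beside 2.57% of all rows. The ratios of single genes had an SD of 0.16 in the cytosolic and 0.08 in the mitochondrial class, beside 0.39 over all rows. The levels of all rows were not matched to those of the members. Among rows with at least 5 FPKM in either library, 0.512% were at least 1.5-fold higher and 1.49% lower.

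The cytosolic member at least 1.5-fold lower was *Rpl29*, which encodes a small basic protein of the large subunit also described at the cell surface. It went from 144 FPKM in wild type to 58.8 FPKM in mutant UGS at E16.5, a log2 ratio of -1.29. This gene has 28 near-identical processed pseudogenes in the GENCODE annotation, so the assignment of its reads is uncertain. The next lowest was *Rpl21*, at 221 and 192 FPKM and a log2 ratio of -0.20, with 59 such copies, the most of any member. *Rpl7a*, with 35 copies, had -0.01. The median E16.5 ratio was 0.02 over the 43 cytosolic members with 5 or more copies. It was 0.04 over the 32 with 1 to 4 and 0.04 over the 3 with none. The part of the copies in these values was not tested. The highest cytosolic ratios at E16.5 were 0.20 for *Rpl34* and 0.11 for *Rpl26*. Among mitochondrial members the ratios went from -0.22 for *Mrpl48* and -0.09 for *Mrps31* to 0.25 for *Mrps11* and 0.28 for *Mrps6*.

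At E18.5 most ribosomal protein genes of both classes had a log2 ratio above 0, as had most rows of the table. It was 63 of 78 cytosolic and 59 of 72 mitochondrial members, beside 10233 of all 14733 rows tested. Of the 78 cytosolic members, 42 (53.8%) were at least 1.5-fold higher in the mutant and 1 was at least 1.5-fold lower. Of the 72 mitochondrial members, 33 (45.8%) were at least 1.5-fold higher and 1 was at least 1.5-fold lower. Over all 14733 rows tested, 32.6% were at least 1.5-fold higher and 7.3% at least 1.5-fold lower. The median log2 ratio was 0.63 for the cytosolic and 0.53 for the mitochondrial members, beside 0.30 over all rows. At 2-fold, 19 cytosolic (24.4%) and 15 mitochondrial members (20.8%) were higher in the mutant, beside 14.3% of all rows. At least 2-fold lower was 1 cytosolic and no mitochondrial member, beside 2.67% of all rows. In the same pair of libraries 5 of 6 erythroid and 7 of 10 smooth muscle genes were at least 1.5-fold higher in the mutant, with medians of 2.23 and 0.98, and their part in the ribosomal protein values was not tested.

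These counts changed with the scaling of the libraries. Rows with at least 1 FPKM in both libraries had a median log2 ratio of 0.28 at E18.5 and 0.01 at E16.5. Relative to that median, 24 cytosolic members were at least 1.5-fold higher and 5 at least 1.5-fold lower, and 20 mitochondrial members were higher and 3 lower, beside 19.2% and 15.6% of all rows. When every library was scaled to the same sum, 19 cytosolic members were higher and 10 lower, and 15 mitochondrial members were higher and 7 lower, beside 14.6% and 21.6% of all rows. With trends on transcript length and GC content subtracted, 17 cytosolic members were higher and 12 lower, and 14 mitochondrial members were higher and 7 lower, beside 12.5% and 14.5% of all rows. The medians then were 0.11 and 0.14, beside 0.01 over all rows. Among rows past 1.5-fold, more were thus lower than higher in the mutant under the last 2 settings.

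**Figure D1:**
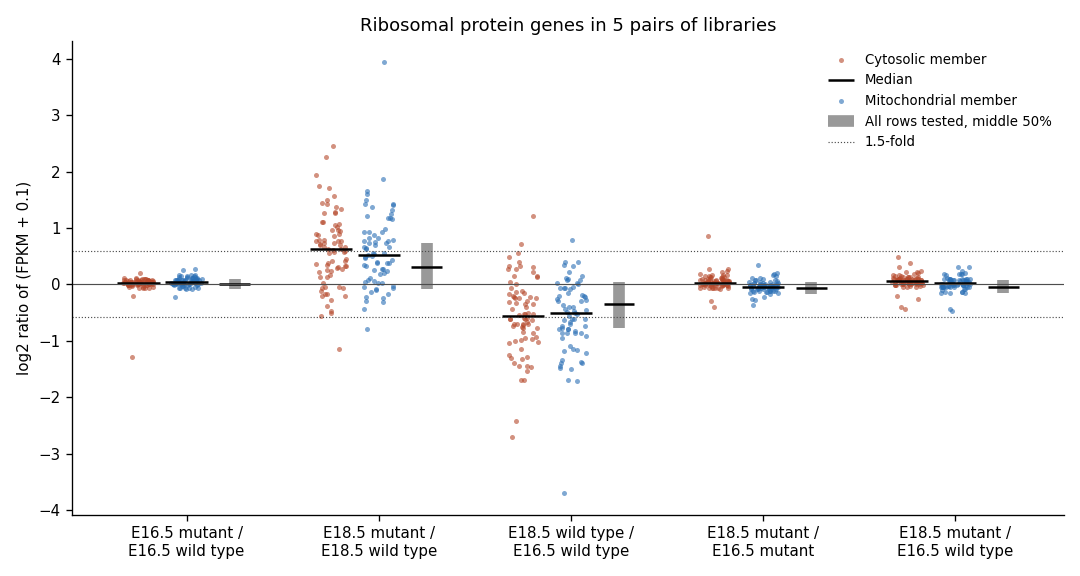
Each point is 1 ribosomal protein gene, placed by its log2 ratio of FPKM + 0.1 (y axis) in 5 pairs of libraries (x axis), cytosolic in red and mitochondrial in blue, with 78 and 72 genes. Black bars are medians, grey bars hold the middle 50% of all rows tested and dotted lines mark 1.5-fold. The points are wide apart in both pairs that hold the E18.5 wild type library and close to 0 in the other pairs.

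The cytosolic members with the largest E18.5 ratios came from both subunits. *Rps14*, a small subunit protein whose loss underlies the anaemia of a human chromosome deletion syndrome, had 1029, 1097, 192 and 1053 FPKM, a log2 ratio of 2.46 at E18.5 and of 0.09 at E16.5. *Rpl29* had 22.0 FPKM in E18.5 wild type and 106 in E18.5 mutant UGS, a log2 ratio of 2.26. *Rpl34*, of the large subunit, had 573, 661, 209 and 801 FPKM and a log2 ratio of 1.94. *Rpl13* had 766, 787, 238 and 797 FPKM and a log2 ratio of 1.74. For *Rps14* and *Rpl13* the E18.5 mutant value lay close to both E16.5 values, and only the E18.5 wild type value was low. In addition to these and to *Rplp2*, *Rps19*, *Rplp0* and *Rpl3*, the cytosolic members at least 2-fold higher included *Rpl9*, *Rps13*, *Rpl15*, *Rps29*, *Rpl18*, *Rpl8*, *Rpl21*, *Rps9*, *Rps21* and *Rpl37a*.

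Other cytosolic members were lower in the E18.5 mutant than in the E18.5 wild type. *Rps26* was the only one past 1.5-fold, at 3672 FPKM in wild type and 1666 in mutant, a log2 ratio of -1.14. *Rps28* had 1066, 1014, 1748 and 1178 FPKM and a log2 ratio of -0.57. *Rps6*, the small subunit protein phosphorylated by S6 kinase, had 377, 389, 551 and 389.6 FPKM and a log2 ratio of -0.50. *Rpl35* had 994, 1002, 1388 and 1001 FPKM and a log2 ratio of -0.47. In each of these genes the E18.5 wild type value was the highest of the 4, and the other 3 lay within 1.25-fold of each other.

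Members of known special roles were spread over this range. The stalk proteins, which recruit elongation factors to the large subunit, had log2 ratios at E18.5 of 1.07 for *Rplp0*, 0.89 for *Rplp1* and 1.70 for *Rplp2*. *Rplp2* had 1105, 1151, 341 and 1106 FPKM. *Rpsa*, also known as the laminin receptor, had 514, 525, 300.4 and 521 FPKM and a log2 ratio of 0.79. *Rps27a*, made as a fusion to ubiquitin, had 737, 723, 453 and 754 FPKM and a log2 ratio of 0.74. *Rps19*, the gene most often mutated in Diamond-Blackfan anaemia, had 690, 719, 252 and 742 FPKM and a log2 ratio of 1.56.

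*Rpl11* and *Rpl5* encode proteins that bind MDM2 together when ribosome assembly is disturbed. *Rpl11* had 863, 899.6, 561 and 888 FPKM and a log2 ratio of 0.66, while *Rpl5* had 143, 137, 137 and 138 FPKM and a log2 ratio of 0.02. The row named *Rpl5* lay on chromosome 7 in the deposited table, whereas GENCODE places the gene on chromosome 5, and it was the only member with such a mismatch. Its values may therefore not be those of the functional gene. *Rps27l* had a log2 ratio of 0.76 and *Rps27* one of 0.97, and the parents *Rpl3*, *Rpl10* and *Rpl39* had 1.05, 0.42 and 0.36.

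Members were also split by subunit as named in their symbols. Of the cytosolic members, 21 of 46 large (45.7%) and 21 of 32 small subunit members (65.6%) were at least 1.5-fold higher in the E18.5 mutant. Their medians were 0.57 and 0.75. In the mitochondrial ribosome it was 22 of 46 large and 11 of 26 small subunit members, with medians of 0.55 and 0.33. Over all rows tested in the same pair of libraries, 32.6% were at least 1.5-fold higher, and the median was 0.30. The difference between subunits was not tested. With E16.5 in place of E18.5 wild type no member of any subunit was past 1.5-fold, beside 2.97% of all rows higher and 3.07% lower.

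The mitochondrial member with the largest ratio was *Mrpl36*, a small zinc-binding protein of the large subunit. It had 2.50, 2.64, 0.1 and 2.97 FPKM. The value in E18.5 wild type corresponds to about 2 reads against 110 in the mutant, so the ratio of 29.6 has a 95% exact binomial counting interval from 8.01 to 248 that covers counting error only. *Mrps14* had 9.25, 9.77, 2.80 and 10.5 FPKM and a log2 ratio of 1.86. *Mrpl53* had 35.2, 35.3, 10.7 and 33.9 FPKM and a log2 ratio of 1.66. *Mrps16*, whose loss causes a human respiratory chain disorder, had 37.4, 41.6, 13.2 and 40.2 FPKM and a log2 ratio of 1.6. *Mrps11* had 12.9, 15.3, 4.44 and 12.7 FPKM and a log2 ratio of 1.5. As in the cytosolic class, the E18.5 wild type value stood below 3 values close to each other. The other mitochondrial members at least 2-fold higher were *Mrps7*, *Mrps34*, *Mrpl14*, *Mrpl28*, *Mrps26*, *Mrpl44*, *Mrpl20*, *Mrpl9*, *Mrps24* and *Mrps12*.

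*Mrps15* was the mitochondrial member at least 1.5-fold lower in the mutant, with 28.6, 29.0, 49.2 and 28.4 FPKM and a log2 ratio of -0.79. The next were *Mrpl39* at -0.44, *Mrps35* at -0.31, *Mrps2* at -0.29 and *Mrpl32* at -0.25. *Mrpl52*, which had the highest mean level of the class, had a log2 ratio of 0.06 and *Mrps31* one of -0.05.

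**Figure D2:**
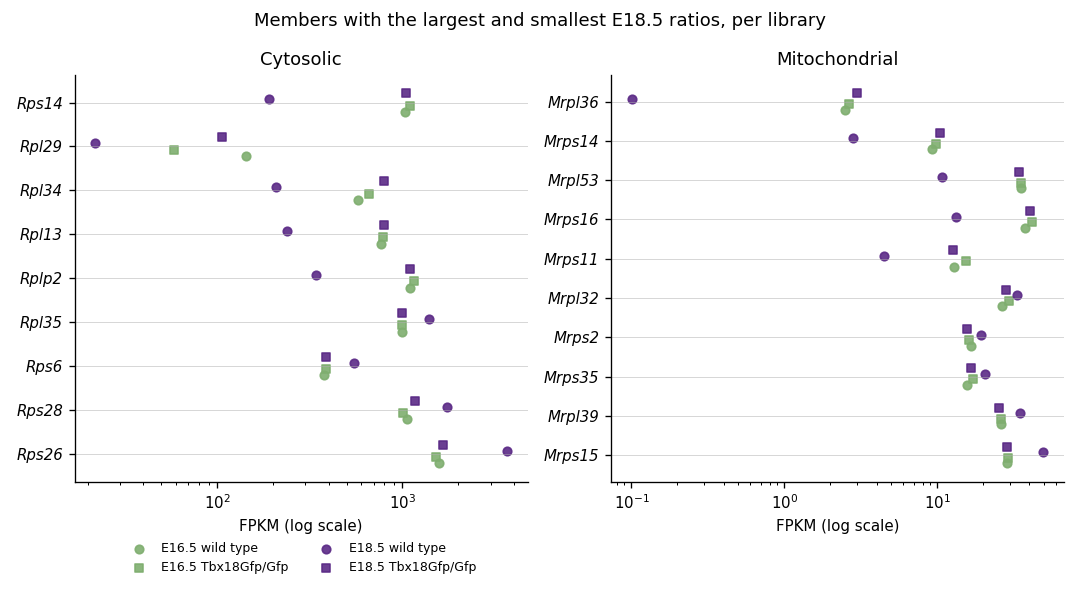
FPKM on a log scale (x axis) of 9 cytosolic and 10 mitochondrial members with the largest and the smallest E18.5 ratios (y axis), 1 symbol per library. Circles are wild type and squares mutant, green E16.5 and purple E18.5. The purple circle lies apart from the other symbols on either side, as for *Rps14* at 192 against 1029 to 1097 FPKM and *Rps26* at 3672 against 1519 to 1666 FPKM, while the symbols of *Rpl29* are all apart.

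The stage comparisons gave the same libraries from another side. In wild type UGS, 39 cytosolic and 34 mitochondrial members were at least 1.5-fold lower at E18.5 than at E16.5, beside 35.4% of all rows, and 2 cytosolic and 1 mitochondrial member were at least 1.5-fold higher, beside 6.54% of all rows. The medians were -0.56 and -0.52, beside -0.35 over all rows. In mutant UGS, *Rpl29* was the only member past 1.5-fold, with a log2 ratio of 0.85 in favour of E18.5, beside 2.85% of all rows higher and 1.47% lower. The medians there were 0.03 and -0.04.

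Without the E18.5 wild type library, E18.5 mutant UGS was set against E16.5 wild type UGS, which differ in both genotype and stage. No member of either class was at least 1.5-fold higher or lower in that pair, beside 2.97% and 3.07% of all rows. The medians were 0.06 and 0.01. The libraries other than E18.5 wild type lay within 1.25-fold of each other for 74 of 78 cytosolic members (94.9%) and 69 of 72 mitochondrial members (95.8%), beside 79% of all 13644 rows with at least 1 FPKM in every library. The levels of these rows were not matched to those of the members, here or below. The members outside 1.25-fold were *Rpl29*, *Rpl34*, *Rpl39*, *Rps3a*, *Mrpl48*, *Mrpl35* and *Mrps36*. *Rps3a*, for example, had 727, 722.5, 501 and 548 FPKM, and *Mrpl48* had 36.5, 31.3, 18.7 and 26.1 FPKM.

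The E18.5 wild type library held the lowest of the 4 values in 62 of 78 cytosolic and 56 of 72 mitochondrial members, and the highest in 15 and 10. Over all rows it held the lowest value in 64.1% and the highest in 22.1%. In 37 cytosolic and 32 mitochondrial members the other libraries were within 1.25-fold of each other and E18.5 wild type was at least 1.5-fold below them all, which is 47.4% and 44.4%, beside 23.1% of all rows. All 4 libraries lay within 1.25-fold of each other for 18 members of each class (23.1% and 25%), close to the 23.3% of all rows, among them *Rpl22*, *Rps15*, *Mrpl52* and *Mrpl12*. Across genes, the log2 levels of any pair of the other 3 libraries had a Pearson's r of at least 0.989 in both classes, while the E18.5 wild type library gave 0.840 to 0.861 with each of them (78 and 72 genes, which are not independent replicates).

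**Figure D3:**
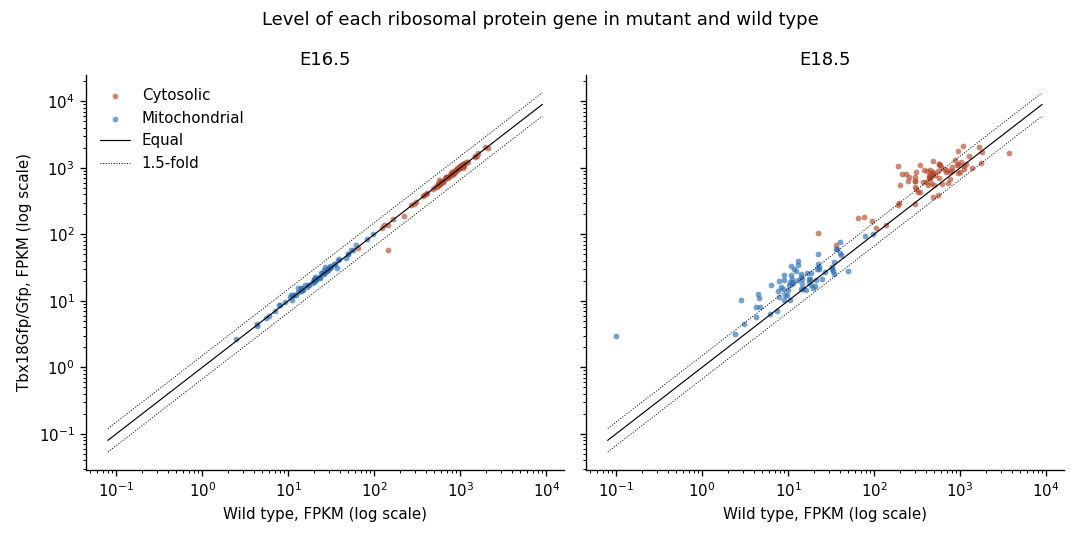
FPKM in mutant (y axis) against wild type UGS (x axis), both on log scales, at E16.5 and at E18.5, 1 point per ribosomal protein gene. Solid lines mark equal levels and dotted lines 1.5-fold. At E16.5 only *Rpl29* leaves the dotted lines. At E18.5 the points spread wider, with 42 cytosolic and 33 mitochondrial members above the upper line. Below the lower line lies 1 member of each class. Over all rows tested at E18.5, 32.6% were at least 1.5-fold higher and 7.3% at least 1.5-fold lower.

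The E18.5 ratio was set against the base composition of the transcripts. Correlations over all rows, in every pair of libraries, used the 13012 that reached 1 FPKM in both E18.5 libraries and have a GENCODE transcript. The genes of a correlation share the same pair of libraries. Over all these rows, Spearman's rank correlation of the log2 ratio with GC content was 0.44 at E18.5 and 0.02 at E16.5. Over the cytosolic members it was 0.18 at E18.5 and 0.24 at E16.5, and over the mitochondrial members it was 0.35 and 0.13. In E18.5 mutant over E16.5 wild type UGS it was -0.12, -0.04 and, over all rows, -0.19. The 24 mitochondrial members of lowest GC content, 39.6% to 48.3%, had a median log2 ratio of 0.24, with 5 at least 1.5-fold higher. The 24 of highest GC content, 52.7% to 60.6%, had a median of 0.73, with 15 at least 1.5-fold higher. Over all rows tested at E18.5, 32.6% were at least 1.5-fold higher. In the cytosolic class the medians of the lowest and the highest 26 were 0.50 and 0.72. Without the E18.5 wild type library the medians of these groups of members lay between -0.01 and 0.09. The rank correlation with transcript length at E18.5 was -0.16 for the mitochondrial and 0.00 for the cytosolic members, beside -0.19 over all rows. In E18.5 mutant over E16.5 wild type UGS it was -0.26, -0.27 and, over all rows, -0.22.

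**Figure D4:**
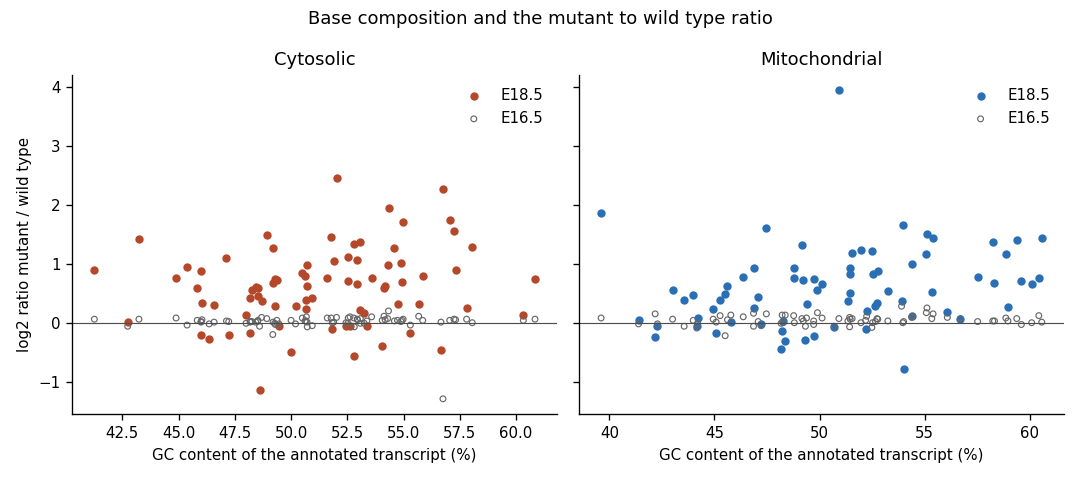
Log2 ratio of mutant to wild type (y axis) against the GC content of the annotated transcript in percent (x axis), 1 filled point per gene at E18.5 and 1 open point at E16.5, for cytosolic and mitochondrial members. At E18.5 the filled points are widely spread at every GC content, while the open points other than *Rpl29* stay near 0.

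Medians of the cytosolic members were also taken by their copies and intronic genes. Most cytosolic members have processed pseudogenes, copies of the mRNA reinserted in the genome, which can take part of their reads. The 43 members with 5 or more copies that match at least 50% of the coding sequence at 95% identity or more had a median E18.5 log2 ratio of 0.66, the 32 with 1 to 4 copies one of 0.58 and the 3 with none one of 0.76. Among the 30 members that carry small nucleolar RNA genes inside the gene the median was 0.58, and among the other 48 it was 0.67. In E18.5 mutant over E16.5 wild type UGS the 5 medians lay between -0.01 and 0.08.

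Members that lie side by side could have unlike ratios. *Mrpl46* and *Mrps11* are transcribed away from each other with 41 bases between them. *Mrpl46* had 11.7, 12.2, 9.72 and 12.4 FPKM and a log2 ratio of 0.34 at E18.5, against 1.5 for *Mrps11*. The sequences around their starts are shown because they share 1 promoter region. They lie at chr7:78783070-78783109 on the minus strand and chr7:78783111-78783150 on the plus strand of GRCm38.p6, from RefSeq, each with 20 bases before and 20 bases from the start, in lower case because neither holds a TOP tract.
Mrpl46: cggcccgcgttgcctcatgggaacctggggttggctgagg
Mrps11: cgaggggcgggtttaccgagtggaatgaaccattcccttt

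The starts of the members were searched for TOP tracts and for promoter motifs in the RefSeq windows of 250 bases before and 50 bases after each start. A window was found for 124 of the 153 members. A TOP tract, here a C at the annotated start followed by at least 4 pyrimidines, stood at 17.8% of the 73 cytosolic starts, 0% of the 69 mitochondrial starts and 2.51% of all 32851 starts of mouse genes. Beginning within 10 bases of the start, it was found at 54.8%, 43.5% and 30.7%. The cytosolic members with a tract within 10 bases had a median E18.5 log2 ratio of 0.67 (35 genes) and those without had 0.56 (23 genes), against 0.07 and 0.06 in E18.5 mutant over E16.5 wild type UGS. The windows of 6 members with a tract at the start itself are given, from genes that were higher and genes that were lower in the E18.5 mutant, each with 20 bases before and 20 bases from the start and with the tract in capitals. Their log2 ratios at E18.5 were 1.70 for *Rplp2*, 1.42 for *Rpl15*, 1.11 for *Rps21*, -0.06 for *Rpl38*, -0.47 for *Rpl35* and -0.50 for *Rps6*. They lie at chr7:141447631-141447670 (plus), chr14:18270967-18271006 (minus), chr2:180257359-180257398 (plus), chr11:114668560-114668599 (plus), chr2:39005112-39005151 (minus) and chr4:86857348-86857387 (minus) of GRCm38.p6.
Rplp2: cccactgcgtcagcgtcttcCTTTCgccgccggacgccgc
Rpl15: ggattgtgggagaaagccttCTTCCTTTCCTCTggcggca
Rps21: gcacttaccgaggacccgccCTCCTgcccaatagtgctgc
Rpl38: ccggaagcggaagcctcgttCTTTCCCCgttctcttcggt
Rpl35: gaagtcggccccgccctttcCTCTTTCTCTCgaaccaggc
Rps6: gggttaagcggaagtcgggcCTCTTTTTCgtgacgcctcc
The tracts of 13 bases in *Rpl15* and of 11 and 9 bases in *Rpl35* and *Rps6* begin transcripts whose E18.5 ratios had opposite signs. The members shown were picked from 13 cytosolic genes with such a tract and do not give the balance of that group. The others had 0.97 for *Rps18* and *Rps27*, 0.95 for *Rps15a*, 0.67 for *Rpl35a*, 0.13 for *Rps10*, -0.05 for *Rpl28* and -0.11 for *Rpl14*. A link between tract and ratio was not tested.

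The motif TCGCGAGA, read on both strands, was present at 16.4% of cytosolic starts, in 11 genes, at 0% of mitochondrial starts and at 0.995% of all starts. Its complement overlaps it, so 1 site can match on both strands. The 11 genes had a median E18.5 log2 ratio of 0.58, from -0.57 for *Rps28* to 1.56 for *Rps19*, and the 47 other cytosolic members with a window had 0.61. Without the E18.5 wild type library the medians were 0.10 and 0.06. Sites of *Rps19* and of *Rps6*, whose log2 ratio was -0.50, are shown with the motif in capitals, at chr7:24884570-24884609 (plus) for *Rps19* and at chr4:86857393-86857432 (minus) for *Rps6* of GRCm38.p6.
Rps19 site: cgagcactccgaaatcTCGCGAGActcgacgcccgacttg
Rps6 site: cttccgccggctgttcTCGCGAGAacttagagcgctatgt
CCGGAAG, the site of ETS factors such as GABP, was present at 37% of cytosolic, 30.4% of mitochondrial and 8.86% of all starts. AAGATGGCG, bound by YY1, stood at 6.85%, 8.7% and 1.4%, and GCATGCGC, the core of the NRF1 site, at 4.11%, 10.1% and 2.71%. CACGTG, the E-box bound by MYC, was at 11%, 8.7% and 7.15%, and TATAAA at 8.22%, 7.25% and 13.6%. These are matches of letters and not measured binding.

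Other genes of the translation machinery were followed as whole lists. None of the lists on translation, ribosome assembly, mTORC1, MYC and the proteasome held a gene past 1.5-fold at E16.5. Over all rows 1.23% were higher and 2.57% lower at that stage. At E18.5 the counts stand beside 32.6% of all rows higher and 7.3% lower by 1.5-fold. Of 27 translation factors and other TOP mRNAs, 7 (25.9%) were at least 1.5-fold higher in the mutant and 1 was lower, with a median log2 ratio of 0.23. Among them *Gnb2l1*, encoding the RACK1 scaffold of the small subunit, had 604, 619, 252 and 634 FPKM, and *Eef2*, the translocase of elongation, had 626, 602, 282.5 and 574.5 FPKM. *Pabpc1*, the cytoplasmic poly(A)-binding protein, was the gene past 1.5-fold in the other direction, with 342, 363, 608 and 329 FPKM and a log2 ratio of -0.89. *Fau*, which encodes a ribosomal protein fused to a ubiquitin-like protein, had a log2 ratio of 0.47.

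Of 34 genes for RNA polymerase I and ribosome assembly, 16 (47.1%) were at least 1.5-fold higher and none lower, with a median of 0.41. *Taf1c*, a subunit of the selectivity factor of RNA polymerase I, had 3.87, 4.22, 1.04 and 3.52 FPKM and a log2 ratio of 1.67, while *Ncl*, encoding nucleolin, had 66.3, 61.3, 81.8 and 61.2 FPKM and one of -0.42. Of 19 genes of mTORC1, the S6 kinases and regulators of TOP mRNAs, 5 (26.3%) were at least 1.5-fold higher and none lower, with a median of 0.38. *Mtor* had 7.26, 6.90, 4.46 and 6.26 FPKM, and *Eif4ebp1*, the translation repressor phosphorylated by mTORC1, had 28.6, 27.2, 15.0 and 38.9 FPKM and a log2 ratio of 1.36. Of 10 MYC network genes, 2 (20%) were higher and 1, *Max*, was lower, with a median of 0.15. *Myc* itself had 16.2, 14, 17.4 and 14.4 FPKM.

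In the mitochondria, 5 of 24 translation factors and further ribosome genes (20.8%) were at least 1.5-fold higher and none lower, with a median of 0.40. *Tsfm*, the elongation factor Ts of mitochondria, had 11.0, 11.8, 3.96 and 11.1 FPKM and a log2 ratio of 1.47. *Mrps18a*, *Mrps18b* and *Mrps18c*, ribosomal proteins whose symbols end in a letter, had 0.87, 0.37 and 0.75. Of the 5 ribosomal protein paralogs and related genes outside the naming rule, 3 (60%) were higher and none lower, with a median of 0.66, and *Rpl22l1* had 227, 235, 123 and 269 FPKM. The proteasome, an abundant complex with no part in translation, had a median of 0.54, with 14 of 31 genes (45.2%) at least 1.5-fold higher and none lower. Among its genes *Psmb4* had a log2 ratio of 1.90 and *Psma4* one of -0.33. The median of 12 proliferation genes was 0.34, with 5 (41.7%) higher and 1 lower. In E18.5 mutant over E16.5 wild type UGS none of these 8 lists held a gene past 1.5-fold. Over all rows 2.97% were higher and 3.07% lower. Medians of the lists lay between -0.14 for the MYC network and 0.02 for the paralogs. These are counts and medians without a test, and nothing particular to a list was read from them.

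**Figure D5:**
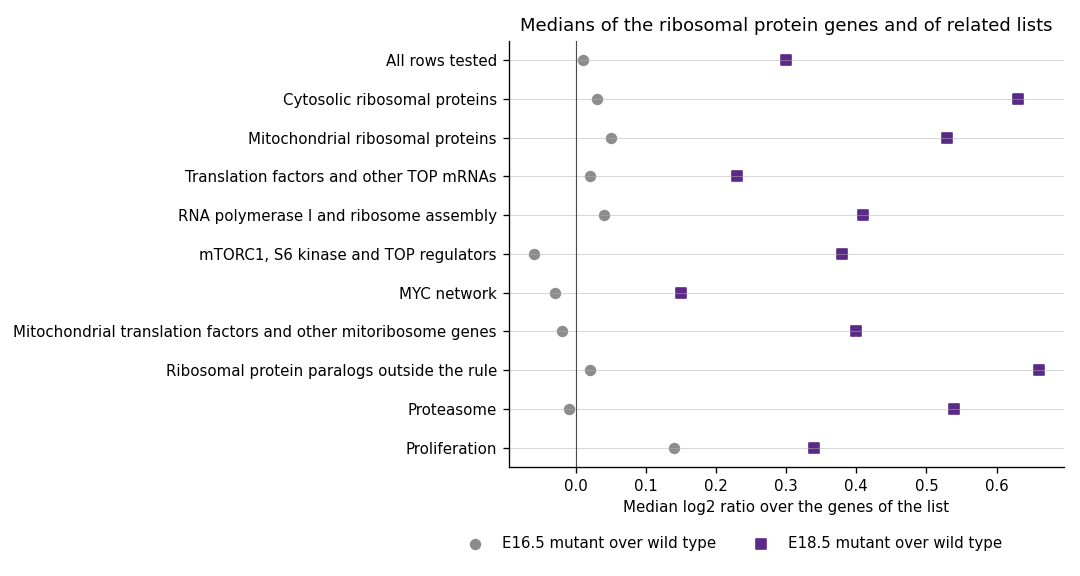
Median log2 ratio of mutant to wild type (x axis) over all rows tested, over the ribosomal protein genes and over 8 related lists (y axis), at E16.5 (grey circles) and E18.5 (purple squares). All E16.5 medians lie between -0.06 and 0.14 and all E18.5 medians are above 0, from 0.15 for the MYC network to 0.66 for the paralogs outside the naming rule.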

How the data were processed

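Libraries were made with a stranded mRNA kit and sequenced as single-end reads. According to the submitters' processing notes and the methods, CASAVA 1.8.2, Trimmomatic 0.30, TopHat2 2.1.0 at default options and Cufflinks 2.2.1 were used. The genome build is not given in the sources used here, and positions in the table differ from those of GRCm38. The deposited values are FPKM, computed by the authors for 25819 rows, 1 column per library, with no scaling between libraries stated. They are not counts, so depth was estimated from single-exon olfactory receptor genes with 1 read (17 to 28 genes per library), and read numbers are estimates that cover counting error only.

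Ratios were log2(FPKM + 0.1), which understates changes of low genes, for rows at 1 FPKM or more in 1 or both libraries, counted at 1.5-fold and 2-fold. No test was applied, since each group is 1 pooled library. Members and lists were chosen with earlier results of these data known. Members named were the 5 largest and 5 smallest E18.5 ratios, the 2 largest and 2 smallest E16.5 ratios and the 3 highest and lowest mean levels of each class, paralogs with their parents, and 9 members of known role. Further genes named were chosen after their values were seen. Some members that the rule names are not reported here. Transcript length, GC content and snoRNA genes came from GENCODE M21 (GRCm38). Pseudogene copies were found with BLAST 2.17.0. Promoter windows came from RefSeq (GRCm38.p6). The trends on length and GC content were lowess fits (span 0.3, statsmodels 0.14.6) and were tested on simulated ratios made with known folds. Python 3.11.15, numpy 2.4.6, pandas 2.3.3, scipy 1.17.1 and matplotlib 3.10.9 were used. Alternatives were other pseudocounts, filters and scalings, repeated symbols left out and, added after seeing the data, E16.5 wild type in place of E18.5 wild type and the *Rpl5* row left out.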

Additional observations from a re-analysis of the deposited data

Results flagged for a closer look

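*Rpl29* was more than 1.5-fold lower in mutant than wild type UGS at E16.5 and more than 1.5-fold higher at E18.5. Its log2 ratios of -1.29 and 2.26 differ by 3.55, a difference that was not tested. The 4 values were 144, 58.8, 22.0 and 106 FPKM. It was the only member of either class past 1.5-fold at E16.5, so no other could go in opposite directions at the 2 stages. The gene has 28 near-identical processed pseudogenes, so the assignment of its reads is uncertain.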

How the results depend on the processing

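Pseudocounts of 0.01 and 1, a filter at 5 FPKM in either library, repeated symbols left out and the *Rpl5* row left out kept every count of members past 1.5-fold within 1.5 times its value. Without an FPKM filter 1 cytosolic member (*Rpl39l*) in place of 0 was higher at E16.5. The scaling moved the counts that hold the E18.5 wild type library. For the E18.5 mutant over wild type, higher and lower counts of 42 and 1 cytosolic members became 19 and 10 with equal sums, 24 and 5 after centring on the median of all genes, 26 and 5 with upper quartile scaling (75th percentile) and 17 and 12 with length and GC trends subtracted, and those of 33 and 1 mitochondrial members became 15 and 7, 20 and 3, 21 and 2, and 14 and 7. Over all rows the shares were 14.6% and 21.6%, 19.2% and 15.6%, 21.2% and 13.9%, and 12.5% and 14.5%, against 32.6% and 7.3%. For wild type E18.5 over E16.5, 2 higher and 39 lower cytosolic members became 8 and 21, 10 and 21, 6 and 22, and 11 and 19 in the same order, and 1 and 34 mitochondrial members became 5 and 18, 5 and 17, 5 and 21, and 7 and 14, with 14.3% and 21.1%, 15.6% and 19.1%, 12.9% and 22.4%, and 13.7% and 11.9% of all rows. With E16.5 wild type in place of E18.5 wild type all E18.5 counts became 0 in both classes, beside 2.97% and 3.07% of all rows. The medians of the E18.5 and the wild type stage comparison kept their sign throughout. Small medians changed sign: at E16.5 the cytosolic one became -0.07 with equal sums and -0.01 with trends subtracted and the mitochondrial one -0.06 with equal sums, and in the mutant stage comparison the mitochondrial one became 0.02 after centring, and 0.01 with upper quartile scaling and with trends subtracted. The cause was not tested. No paired analysis was possible because each group is 1 pooled library. Depth limits *Rpl39l*, *Rpl3l* and, in E18.5 wild type UGS, *Mrpl36*, each at about 6 reads or fewer in the libraries named.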
